A study of Mus musculus with 12 samples.

Results

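The genes described here are those of the Wnt signaling pathway from its ligands to its nuclear effectors, namely the Wnt ligands, the Frizzled receptors, their co-receptors, the R-spondins, β-catenin with parts of its destruction complex, the TCF/LEF factors and the main feedback genes. They were chosen by gene symbol alone, with earlier results of these data known, and 50 of the 19938 genes measured matched. Levels were measured in islets of RIP1-Tag2 mice on a C57BL/6 background, in which the rat insulin promoter drives the SV40 T antigen in pancreatic beta cells, so that normal islets progress in steps to tumors. All animals were 8 weeks old and all islets carried the transgene. Islets freed with collagenase and purified on a density gradient were sorted by appearance into angiogenic and non angiogenic ones and pooled, and 6 pools of each kind were hybridized, 1 pool per array. Nothing says how many mice or islets a pool holds, nor that different mice gave different pools. The 6 arrays of a group may thus not be 6 independent samples, and p-values rest on the variation among pools alone.

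Wnt ligands are lipid-modified secreted proteins that act over short distances. Where a ligand joins a Frizzled receptor to the co-receptors LRP5 or LRP6, the destruction complex of APC, axin and kinases no longer marks β-catenin for degradation, and β-catenin enters the nucleus and joins TCF/LEF factors at target genes. Other Frizzled complexes, with ROR or RYK co-receptors, act on cell shape and polarity without β-catenin. In blood vessels FZD4 also binds Norrin, a ligand that is no Wnt, and this signal shapes the capillaries of the retina. In the pancreas Wnt signaling takes part in the growth of the organ and of its exocrine tissue.

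Levels are log2 values after RMA as the authors deposited them, differences are given as angiogenic minus non angiogenic with the standard error (SE) of the fit, and levels of different genes cannot be set against each other. The arrays fell into sets, with replicates 1 to 3 of both groups apart from replicates 4 to 6 along the first principal component. The labels do not name these sets, and each holds 3 arrays of either group. The study mentions separate profiling experiments, and whether the sets are these is not given in the sources used here. If they are, the 6 pools of a group are not alike in origin. Whatever the origin of the sets, the first component held 41.5% of the variance. After adjustment of p-values, 7349 of the 19938 genes passed as different between the sets. The SE and p of a fit without a block thus include the variation between sets. Some genes that did not pass in that fit passed with the set as a block, as given below. Whole islets were measured, and in such bulk samples fewer cells of a type and less RNA per cell cannot be told apart. Markers of beta and other islet cells had a mean log2 level of 11.98 to 12.10 on the angiogenic and of 12.12 to 12.27 on the non angiogenic arrays. Of the 14 genes in that list none passed as higher and 2 as lower, the hormone genes of alpha and delta cells Gcg and Sst. The median difference of the 14 was -0.044. Of 15 endothelial markers 13 passed as higher in angiogenic islets and none as lower, and their mean level ran from 9.47 to 9.63 against 8.98 to 9.16. The same held for 11 of 12 pericyte and smooth muscle markers (8.39 to 8.77 against 7.74 to 7.92), 10 of 12 fibroblast markers (9.18 to 9.44 against 8.11 to 8.50) and 8 of 12 macrophage markers (8.54 to 8.96 against 8.11 to 8.44). No marker of 12 for acinar, 6 for duct and 6 for Schwann or neural cells passed, while acinar means varied from 7.60 to 10.11 and from 7.50 to 11.12. No defining marker can be at 0 on this scale, and the part of these cell types in the results below was not tested, except that the acinar marker mean as a covariate left the same 4 members past the test.

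Most Wnt pathway genes did not pass the test between angiogenic and non angiogenic islets, and those that did were spread over the pathway. A pair of Frizzled receptor genes (Fzd4 and Fzd1), the TCF/LEF factor gene Tcf7l1 and the feedback inhibitor gene Nkd2 were higher in angiogenic islets. No ligand, R-spondin or part of the destruction complex passed, nor did Axin2, the most widely used target gene of β-catenin. With limma at an adjusted p under 0.05, 4 of the 50 members (8.00%) were higher, against 3.55% of all genes, and 0 were lower, against 0.948%. At an unadjusted p under 0.05, 5 members were higher and 0 lower, against 7.76% and 6.59% of all genes. By the methods' t-test after adjustment 3 members were higher and 0 lower, against 2.94% and 0.903% of all genes, since Fzd1 was lost (adjusted p = 0.0554). With a block for the set in limma, Ror1 joined the 4 members, so that 5 were higher and 0 lower, against 5.88% and 2.74% of all genes. The 4 members were also the only ones of the 50 whose arrays did not overlap between the groups, which held upwards for 2.85% and downwards for 0.923% of all genes. The median log2 difference of the members was -0.024, beside -0.021 for all genes, and 32 of 50 (64%) lay below 0, beside 59.9% of all genes.

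**Figure D1:**
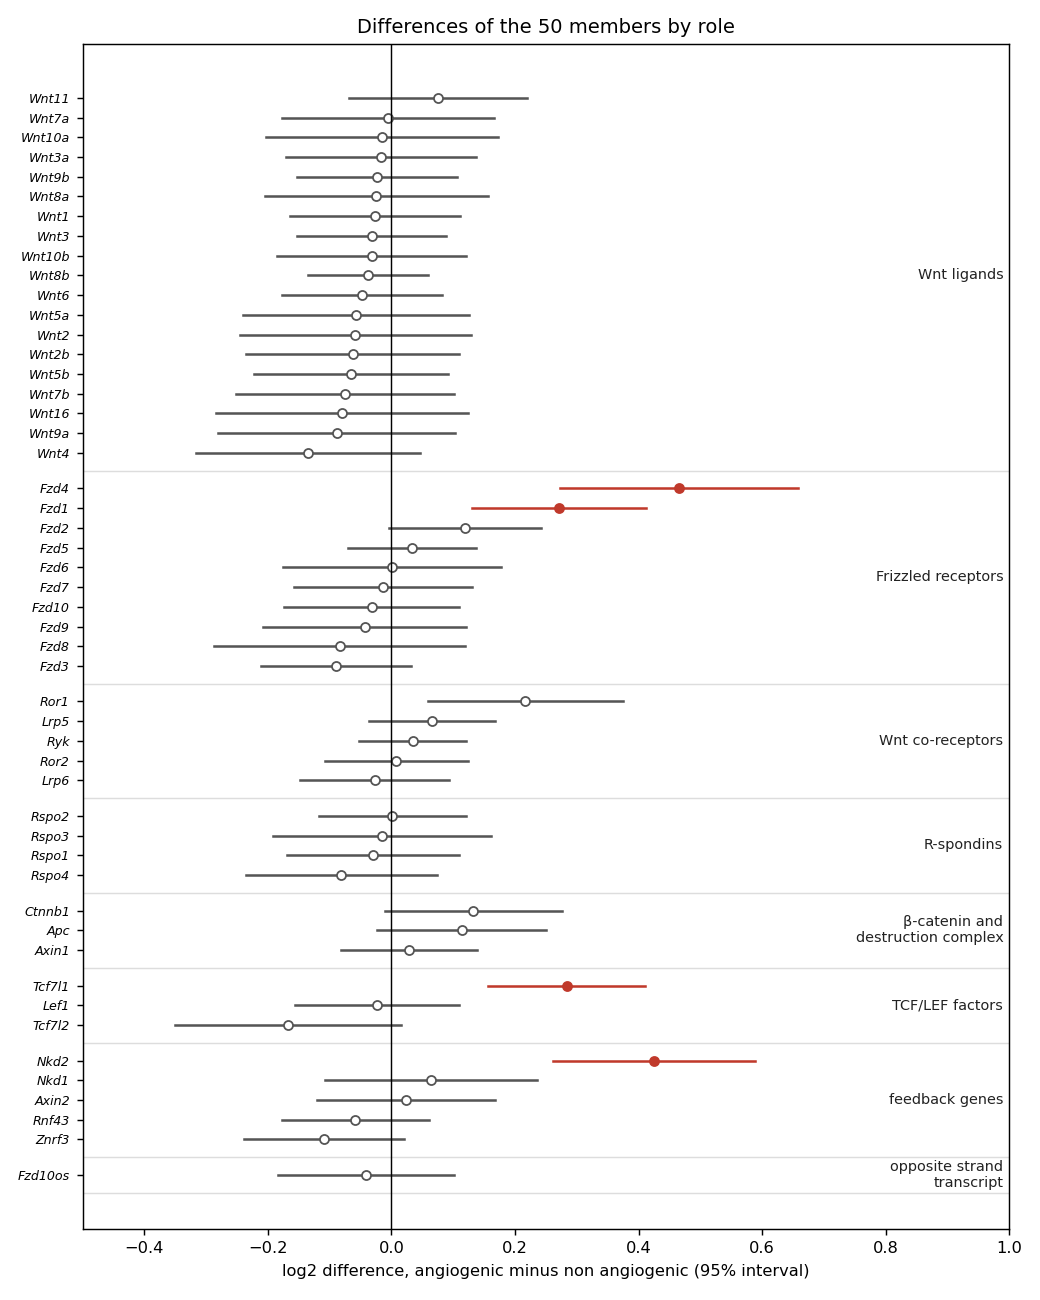
Log2 difference between angiogenic and non angiogenic islets for each of the 50 members, grouped by role, with the 95% interval from limma as a line (6 arrays per group). Filled red points mark the 4 genes at an adjusted p under 0.05, Fzd4, Nkd2, Tcf7l1 and Fzd1, and open points mark the other 46.

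Among the Frizzled receptors, the membrane proteins that bind Wnt ligands, 2 of 10 passed as higher and none as lower. Fzd4, the receptor gene for Norrin and for Wnt ligands, had the largest difference of all members. Its log2 level had a lowest value of 7.82, a median of 8.09 and a highest value of 8.33 in angiogenic islets, and 7.38, 7.64 and 7.81 in non angiogenic islets. All angiogenic arrays thus lay above all non angiogenic arrays, by a narrow margin. The difference was 0.47 ± 0.090 (SE), a ratio of 1.38 with a 95% interval of 1.21 to 1.58 (adjusted p = 0.0064 from limma). It passed in all 12 fits without 1 array and within each set alone, at 0.50 in replicates 1 to 3 and 0.43 in replicates 4 to 6.

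Fzd1, which encodes a receptor that can act through β-catenin, ranged from 8.48 over a median of 8.57 to 8.85 in angiogenic islets, and from 8.23 over 8.33 to 8.47 in non angiogenic islets. The groups did not overlap, and replicates 1 and 2 were the highest angiogenic arrays. The difference was 0.27 ± 0.066 (SE), a ratio of 1.21 (adjusted p = 0.0288 from limma). This call was lost without non angiogenic replicate 1, 4, 5 or 6 or angiogenic replicate 2, with an adjusted p of up to 0.0673 and differences between 0.25 and 0.27. Within the sets the differences were 0.30 and 0.24 and did not pass (adjusted p = 0.132 and 0.0654).

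The other 8 Frizzled genes did not pass. Fzd2, closely related to Fzd1 and Fzd7 in sequence, had a difference of 0.12 ± 0.058 (SE) (adjusted p = 0.372 from limma), and Fzd7 itself one of -0.014 ± 0.068 (SE). Fzd3 and Fzd6, receptors known from planar cell polarity, had differences of -0.090 and 0.00081. For Fzd5, Fzd8, Fzd9 and Fzd10 they were 0.033, -0.084, -0.043 and -0.032. The median over the 10 receptor genes was -0.0066. The symbol rule also took Fzd10os, a transcript named for the strand opposite to Fzd10, which encodes no receptor. It ranged from 5.96 to 6.19 in angiogenic and from 5.96 to 6.26 in non angiogenic islets, with medians of 6.02 and 6.08 and overlapping groups.

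**Figure D2:**
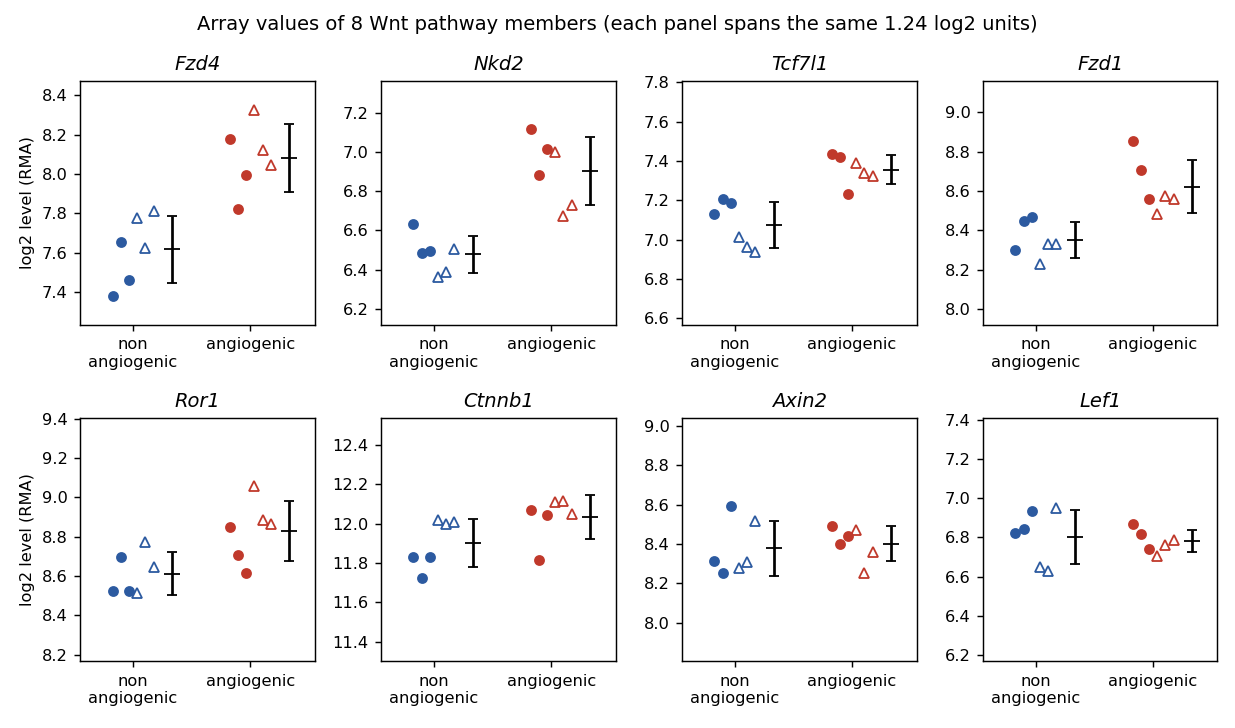
Log2 level on each array of the 4 genes that passed (upper row) and of Ror1, Ctnnb1, Axin2 and Lef1 (lower row), in blue for non angiogenic and in red for angiogenic islets, on axes of equal span. Filled circles are replicates 1 to 3, open triangles replicates 4 to 6, and bars the mean and SD of 6 arrays. The groups do not overlap in the upper row and overlap in the lower row.

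The co-receptors were mostly level between the groups within their error, and Ror1 passed only in the fit that blocks on the set. Ror1 encodes a receptor with a kinase-like domain that binds Wnt5a. Its lowest, median and highest values were 8.61, 8.86 and 9.06 in angiogenic islets and 8.51, 8.58 and 8.77 in non angiogenic islets. Of the 6 angiogenic arrays 4 lay above all non angiogenic arrays, while replicates 2 and 3 fell among them. The difference was 0.22 ± 0.074 (SE), a ratio of 1.16 (adjusted p = 0.140 from limma, and 0.0407 with the set as a block). Its relative Ror2 had a difference of 0.0076 ± 0.054 (SE). Lrp5 and Lrp6, the co-receptors of β-catenin signaling, had differences of 0.066 and -0.027, and Ryk, a co-receptor of the tyrosine kinase family, one of 0.034 with the smallest standard error of all members, 0.041.

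None of the 19 Wnt ligand genes passed in either direction, with 0 at an unadjusted p under 0.05 from limma and 0 by the methods' t-test after adjustment. Wnt4, a ligand known from kidney and female reproductive tract, had the largest difference. It ranged from 9.65 over a median of 9.87 to 10.11 in angiogenic and from 9.80 over 10.05 to 10.20 in non angiogenic islets, so that the groups overlapped over most of their range. The difference was -0.13 ± 0.085 (SE) (adjusted p = 0.548 from limma). A dimmer cluster of Wnt4 also gave -0.13. It is the only member with more than 1 cluster.

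The ligands that are usually assigned to β-catenin signaling had small differences as well. These were -0.027 for Wnt1, -0.017 for Wnt3a, -0.058 for Wnt2, -0.076 for Wnt7b and -0.0060 for Wnt7a, a ligand of brain endothelium as is Wnt7b. Wnt5a and Wnt5b, ligands known for signals without β-catenin, had -0.057 and -0.066, and Wnt11, the only ligand with a positive difference, 0.075 ± 0.067 (SE). The remaining 10 ligands lay between -0.088 (Wnt9a) and -0.016 (Wnt10a). For all 19 ligands the 95% interval of the ratio stayed between 0.803 and 1.16. A change of more than 1.25-fold in either direction was thus outside the interval of each ligand on these compressed values.

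Of the 19 ligands 18 had a difference below 0, beside 59.9% of all genes, with a median of -0.037. This sign was not the same in all arrays or under all scalings. In replicates 1 to 3 alone 18 were below 0 and in replicates 4 to 6 alone 9 were, with medians of -0.096 and 0.0055. After quantile normalization 13 of 19 were below 0 beside 49.3% of all genes, and without non angiogenic replicate 1 12 of 19. The R-spondins, which stabilize Frizzled receptors at the cell surface, did not pass either. Rspo4 had the largest difference, -0.081 ± 0.072 (SE), and ranged from 8.22 to 8.57 in angiogenic and from 8.28 to 8.70 in non angiogenic islets with medians of 8.43 and 8.49. Rspo1, Rspo2 and Rspo3 had differences of -0.030, 0.0014 and -0.015.

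Ctnnb1, the β-catenin gene, did not pass. It had lowest, median and highest values of 11.82, 12.06 and 12.11 in angiogenic and of 11.72, 11.91 and 12.02 in non angiogenic islets. Of the 6 angiogenic arrays 5 lay above all non angiogenic ones. Angiogenic replicate 2 was far below these 5 and fell among the non angiogenic arrays. The difference was 0.13 ± 0.067 (SE), a ratio of 1.10 with a 95% interval of 0.993 to 1.21 (adjusted p = 0.408 from limma, and between 0.163 and 0.632 without 1 array). Apc and Axin1, scaffolds of the complex that degrades β-catenin, had differences of 0.11 and 0.028 with standard errors of 0.064 and 0.051. The difference of Apc was 0.25 in the set of replicates 1 to 3 but -0.024 in the set of replicates 4 to 6. As β-catenin is controlled by degradation, mRNA levels do not measure its activity.

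Of the 3 TCF/LEF factor genes measured, 1 was higher. Tcf7l1 encodes a factor that mostly represses target genes in the absence of β-catenin. Its lowest, median and highest values were 7.23, 7.37 and 7.43 in angiogenic and 6.94, 7.07 and 7.21 in non angiogenic islets, with no overlap. The non angiogenic arrays fell apart by set, with replicates 1 to 3 above replicates 4 to 6. The difference was 0.28 ± 0.059 (SE), a ratio of 1.22 with a 95% interval of 1.11 to 1.33 (adjusted p = 0.0112 from limma), and it passed in all 12 fits without 1 array. It was 0.19 in replicates 1 to 3, where it did not pass alone (adjusted p = 0.251), and 0.38 in replicates 4 to 6 (adjusted p = 0.0071).

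Lef1, an activating factor and itself a target of β-catenin, ranged from 6.71 over a median of 6.78 to 6.87 in angiogenic islets. In non angiogenic islets it spread more widely, from 6.63 over 6.83 to 6.95, and enclosed all angiogenic arrays. The difference was -0.023 ± 0.062 (SE), which gives a 95% interval of the ratio of 0.897 to 1.08. Tcf7l2, the main TCF gene of the gut and a gene linked to type 2 diabetes, had the lowest difference of all members, -0.17 ± 0.085 (SE) (adjusted p = 0.411 from limma). The sets gave -0.32 (replicates 1 to 3) and -0.018 (replicates 4 to 6). Tcf7 was not analysed here.

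Feedback genes limit the signal, and some of them are induced by β-catenin and serve as readouts of the pathway. Nkd2, which encodes a protein that binds Dishevelled and dampens Wnt signals, was the only one of the 5 feedback genes that passed, as higher. Whether β-catenin induces it here was not tested. Its lowest, median and highest values were 6.67, 6.94 and 7.12 in angiogenic and 6.36, 6.49 and 6.63 in non angiogenic islets. The groups did not overlap, with angiogenic replicates 5 and 6 and non angiogenic replicate 1 nearest to the other group. The difference was 0.43 ± 0.076 (SE), a ratio of 1.34 with a 95% interval of 1.20 to 1.50 (adjusted p = 0.0037 from limma). It passed in all 12 fits without 1 array and in replicates 1 to 3 alone, at 0.47, while in replicates 4 to 6 alone it was 0.38 with an adjusted p of 0.0509.

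Its paralog Nkd1 had a difference of 0.064 ± 0.080 (SE), made of -0.10 in replicates 1 to 3 and 0.23 in replicates 4 to 6. Axin2, the axin gene that β-catenin induces in most tissues, ranged from 8.25 over a median of 8.42 to 8.49 in angiogenic and from 8.25 over 8.31 to 8.59 in non angiogenic islets. The groups overlapped almost in full. The difference was 0.024 ± 0.067 (SE), and the 95% interval of the ratio, 0.920 to 1.12, holds both small rises and small falls (adjusted p = 0.938 from limma). Rnf43 and Znrf3, ubiquitin ligases that remove Frizzled receptors from the surface, had differences of -0.059 and -0.11 with standard errors of 0.056 and 0.061.

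The promoters of the 4 genes that passed are shown because a shared TCF/LEF site would be the simplest sequence feature to look for in them. Each run gives the 250 bases before the RefSeq start in GRCm38.p6, read 5′ to 3′ on the strand of the gene. Capitals mark the GC box GGGCGG on either strand, a site of Sp-family factors that was chosen after the windows had been seen. Fzd4 lies at chr7:89404116-89404365 on the plus strand, Tcf7l1 at chr6:72789046-72789295, Fzd1 at chr5:4758217-4758466 and Nkd2 at chr13:73847632-73847881, these 3 on the minus strand.
Fzd4: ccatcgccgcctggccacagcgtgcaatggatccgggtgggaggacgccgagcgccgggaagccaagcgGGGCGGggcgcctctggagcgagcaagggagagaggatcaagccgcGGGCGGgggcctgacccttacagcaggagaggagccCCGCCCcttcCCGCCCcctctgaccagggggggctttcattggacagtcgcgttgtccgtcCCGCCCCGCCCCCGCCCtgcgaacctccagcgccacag
Tcf7l1: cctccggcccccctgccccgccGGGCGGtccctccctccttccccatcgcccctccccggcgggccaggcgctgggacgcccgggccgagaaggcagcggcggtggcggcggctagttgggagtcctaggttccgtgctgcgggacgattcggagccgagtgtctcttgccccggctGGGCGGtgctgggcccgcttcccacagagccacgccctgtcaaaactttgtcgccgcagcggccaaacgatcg
Fzd1: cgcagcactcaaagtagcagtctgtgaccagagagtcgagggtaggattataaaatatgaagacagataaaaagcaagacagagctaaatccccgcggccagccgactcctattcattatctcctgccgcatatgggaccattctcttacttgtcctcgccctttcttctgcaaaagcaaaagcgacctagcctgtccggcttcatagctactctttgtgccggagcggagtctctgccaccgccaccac
Nkd2: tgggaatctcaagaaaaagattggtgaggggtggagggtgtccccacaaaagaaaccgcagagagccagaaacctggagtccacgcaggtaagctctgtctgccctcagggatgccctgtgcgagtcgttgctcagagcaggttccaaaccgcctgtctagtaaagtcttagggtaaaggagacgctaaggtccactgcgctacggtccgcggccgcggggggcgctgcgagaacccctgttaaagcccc

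None of the 4 windows holds the TCF/LEF core CTTTGAT on either strand. Of all 32851 windows of this length that were searched, 3.21% hold it, and of 43 windows found for 34 of the members 2 do, 1 of Wnt11 and 1 of Wnt5b, neither of which passed the test. The absence says only that these letters are not in these windows. The windows differ in base composition. Those of Fzd4 and Tcf7l1 hold 72.8% and 73.6% G and C, with 7 and 2 GC boxes, where overlapping matches count separately. Those of Fzd1 and Nkd2 hold 51.2% and 58.4% and no GC box. GC boxes occur in 32.7% of all windows and in 30 of the 43 of the members. The median share of G and C is 52.4% in all windows and 68% in those of the members.

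Of the 50 members 12 had a positive difference in both sets of arrays. The 4 that passed are among them, which follows from groups that do not overlap and is no separate evidence of their direction. No member differed between the sets by an interaction of set and group at an adjusted p under 0.05 from limma, a test added after the data were seen, against 1 gene of all 19938 (0.00502%). At an unadjusted p under 0.05 there were 7, namely Apc, Nkd1, Tcf7l1, Tcf7l2, Wnt8a, Wnt10b and Wnt16. The share of all genes at that unadjusted threshold is not given here, so this count cannot be read as a trait of the members. Of the 7, Wnt8a had the lowest p, with -0.24 in replicates 1 to 3 and 0.19 in replicates 4 to 6 (adjusted p = 0.645 from limma). For the 46 members that did not pass in the main comparison, the 95% interval of the ratio stayed within 1.5-fold in either direction for all 46, and within 1.25-fold for 44.

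**Figure D3:**
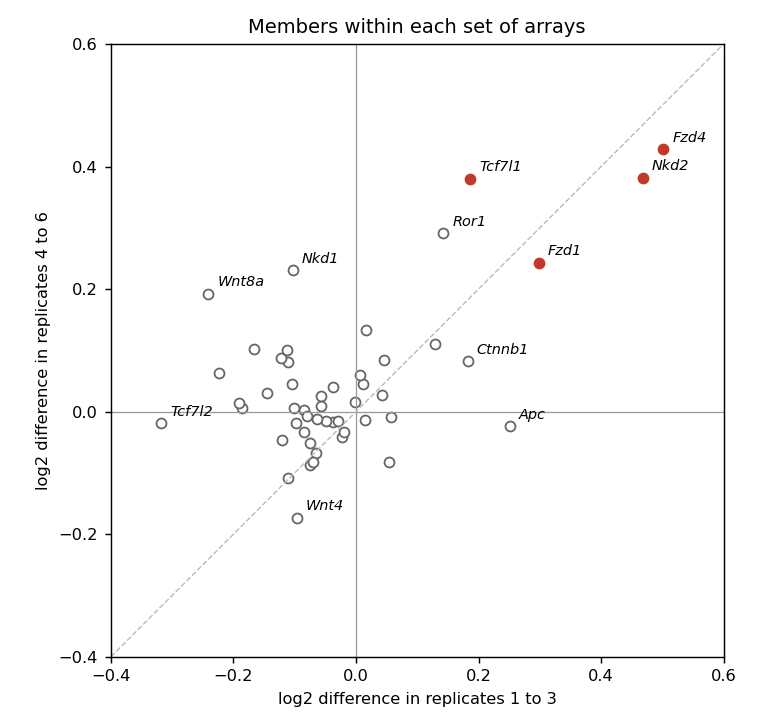
Log2 difference between angiogenic and non angiogenic islets in replicates 1 to 3 (horizontal) and in replicates 4 to 6 (vertical), 1 point per member, 3 arrays of each group per set. Filled red points passed over all arrays, and the dashed line marks equal differences. The 4 red points lie above 0 on both axes, the lowest at 0.19, while most others lie near 0 or change sign between the sets.

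Other genes of the pathway were counted in lists written by function. Of 94 genes measured, 4 rose and 3 fell at an adjusted p under 0.05 (limma), beside 3.55% and 0.948% of all genes, and their median was -0.0080. Before adjustment of the limma p-values, 14 of the 94 passed 0.05 as higher and 13 as lower, beside 7.76% and 6.59% of all genes. The list that stood highest was that of Norrin and of co-factors of Wnt signaling in endothelial cells, with a median of 0.25. Of its 7 genes 2 passed as higher and none as lower. Adgra2, which encodes the co-receptor GPR124 that endothelial cells use for Wnt7 ligands, had levels of 7.66 ± 0.084 (SD, n = 6) and 7.27 ± 0.066 (SD, n = 6), a ratio of 1.31 (adjusted p = 0.000231 from limma). Sox7, a transcription factor gene of endothelial cells, was 1.28-fold higher (adjusted p = 0.0166). Tspan12, which encodes a partner of FZD4 in Norrin signaling, had a difference of 0.25 ± 0.081 (SE) (adjusted p = 0.109, but 0.0019 with the set and 0.0059 with the replicate number as a block). The list holds genes of endothelial cells by choice, and the endothelial markers had a median of 0.43.

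Among 21 genes of Wnt secretion and cytoplasmic transduction none passed. At an unadjusted p under 0.05 from limma 5 were lower and 0 higher, beside 6.59% and 7.76% of all genes. Btrc, a ubiquitin ligase subunit that recognizes β-catenin, had the largest difference, -0.21 ± 0.070 (SE) (adjusted p = 0.142). With the set as a block Btrc and Wls, the carrier of Wnt ligands to the cell surface, were lower (adjusted p = 0.0035 and 0.0422 from limma). In that fit 2 of the 21 were lower and 0 higher, beside 2.74% and 5.88% of all genes. Btrc was also lower with the replicate number as a block (adjusted p = 0.0179 from limma), and Wls by the methods' t-test (adjusted p = 0.0483). Of 16 nuclear cofactors Pygo1, which encodes a partner of β-catenin, was lower by a difference of -0.18 (adjusted p = 0.0408 from limma). This call held in 2 of 12 fits without 1 array, those without non angiogenic replicate 6 or angiogenic replicate 1, and the adjusted p of the others rose up to 0.105. Of 15 planar cell polarity genes none passed, and Daam2 had the largest difference, 0.21 ± 0.084 (SE) (adjusted p = 0.240 from limma). At an unadjusted p under 0.05 from limma 3 of the 15 were higher and 1 lower, beside 7.76% and 6.59% of all genes.

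Of 21 known β-catenin target genes outside the members, 1 passed as higher and none as lower, with a median of 0.013. At an unadjusted p under 0.05 from limma 4 were higher and 1 lower, beside 7.76% and 6.59% of all genes. With the set as a block 3 were higher and 0 lower, beside 5.88% and 2.74% of all genes. The gene that passed without a block was Birc5, the gene of the mitotic protein survivin, at 1.15-fold (adjusted p = 0.0245 from limma), which is known as a cell cycle gene. Its call was lost without non angiogenic replicate 2 or 6 or angiogenic replicate 2, 3, 5 or 6, with an adjusted p of up to 0.0605. Myc and Ccnd1, the targets most often cited in tumors, had differences of 0.12 and 0.15 and did not pass. The secreted Wnt antagonists moved in both directions. Sfrp5 and Frzb were lower, with ratios of 0.673 and 0.684, and Sfrp1 was higher, with 1.80 (adjusted p = 0.000578, 0.0026 and 0.0200 from limma), and the other 11 did not pass. Sfrp1 was lost without angiogenic replicate 4, 5 or 6 (adjusted p up to 0.0533 from limma) and by the methods' t-test (adjusted p = 0.0806). Frzb had a difference of -0.32 in replicates 1 to 3 and of -0.78 in replicates 4 to 6 (adjusted p = 0.736 for the interaction of set and group from limma).

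**Figure D4:**
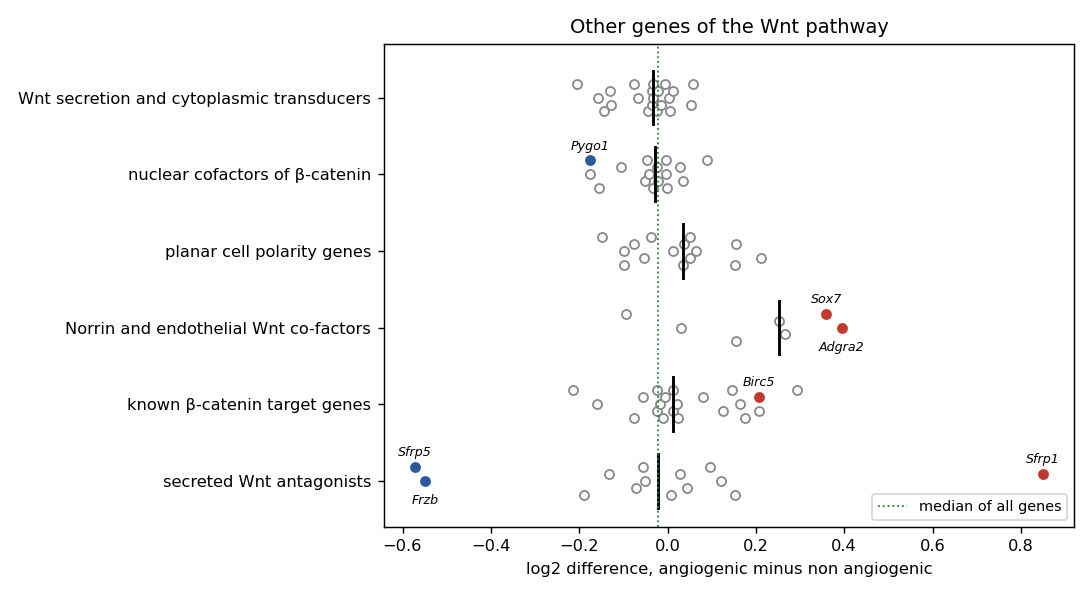
Log2 difference between angiogenic and non angiogenic islets for the other genes of the Wnt pathway in 6 lists, 1 point per gene. Filled points passed at an adjusted p under 0.05 (red higher, blue lower), black bars are list medians and the dotted line is the median of all genes. The Norrin and endothelial list has the highest median, 0.25, and the antagonists the widest range, from -0.57 to 0.85.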

How the data were processed

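Total RNA of 12 pools of islets, 6 angiogenic and 6 non angiogenic, was hybridized to Affymetrix mouse gene arrays. The values deposited by the authors are log2 levels of transcript clusters, made with RMA in Affymetrix Expression Console according to the submitters' processing notes. RMA corrects background, brings arrays to a common distribution and summarizes probes, so that a change in total RNA cannot be seen and weak signals are compressed. Versions of these tools, and whether 1 normalization covered all arrays, are unknown here. Array medians lay between 7.30 and 7.38, and the number of arrays limits precision.

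Clusters were named through the platform annotation. Those with exactly 1 symbol (21789 of 35556, with 1621 naming several and 12146 unnamed) were kept, the brightest per gene by its mean, which left 19938 genes. Members were found by symbol. Groups and replicate numbers came from sample titles. R 4.3.3 and limma 3.58.1 (lmFit, eBayes, two-sided, no covariates) were used, and p-values were adjusted across all genes (Benjamini-Hochberg) and called under 0.05. The fit had first been tested on simulated data with independent noise and no difference between sets, so that test does not cover the sets. Array values are given for members that passed with or without the set as a block, members without overlap, the largest difference in each other role group, and Ctnnb1, Axin2 and Lef1. From each pathway list the 3 largest differences that passed were named, or the largest that did not. Named beyond this rule were the other Frizzled genes, the single ligands, the other co-receptors and R-spondins, Axin1, Tcf7l2, Rnf43 and Znrf3. So were Tspan12, Wls, Myc, Ccnd1 and the genes of the interaction test. Members, lists and alternatives were chosen with earlier results of these data known. Promoter sequences are from RefSeq in GRCm38.p6, and the array files name no build. RT-qPCR, stainings and human cohorts were not analysed here.

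Alternatives were the methods' t-test, array weights or an intensity trend in limma, quantile normalization, centring on array medians, dropping genes below the 25th percentile of mean level, the mean of all clusters, blocks for the set or the replicate number, the acinar marker mean as a covariate, each set alone, and each array left out in turn. The interaction test and the second Wnt4 cluster were added after the data were seen.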

Additional observations from a re-analysis of the deposited data

Results flagged for a closer look

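Among the 100 groups of 6 arrays, 2 for each of the 50 members, 7 held 1 array that stood apart from the other 5 by more than the 95% limit of Dixon's test, which chance passes in about 1 of 20 groups. Of these 7 arrays 3 were angiogenic replicate 2, where Ctnnb1 was low at 11.82 (other arrays 12.05 to 12.11), Lrp6 low at 9.35 (9.51 to 9.58) and Fzd7 high at 7.98 (7.57 to 7.71). Wnt1 was low at 5.06 in angiogenic replicate 4 (5.24 to 5.33), and Wnt10b low at 6.68 in angiogenic replicate 6 (6.75 to 6.79). In non angiogenic islets Axin1 was low at 9.15 in replicate 2 (9.28 to 9.36), and Znrf3 high at 9.33 in replicate 3 (9.05 to 9.16). None of these genes passed the comparison between the groups, with or without the array in question.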

How the results depend on the processing

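The count of members higher in angiogenic islets was 3 or 4 without 1 array and 0 were lower, and it was 2 in replicates 1 to 3 alone (Fzd4 and Nkd2) and 2 in replicates 4 to 6 alone (Fzd4 and Tcf7l1). Fewer arrays were tested there. The other pathway genes gave 8 higher and 6 lower with a block for the set and 1 lower in replicates 1 to 3 alone. Without 1 array 2 to 4 of them were higher and 2 or 3 lower, with 2 higher without angiogenic replicate 5 or 6. Over all genes, 553 to 715 were higher and 110 to 178 lower without 1 array (110 without angiogenic replicate 6), 1172 and 547 with the set as a block, and 66 lower in replicates 1 to 3 alone.

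Fzd4 passed under all alternatives, Nkd2 under all but replicates 4 to 6 alone and Tcf7l1 under all but replicates 1 to 3 alone. Of 264 differences recomputed for 11 named members, 8 changed sign, all of them of genes that did not pass. These were Axin2 with array weights (-0.021), in replicates 4 to 6 alone (-0.0088) and without non angiogenic replicate 2 (-7.0e-04), Lef1 after quantile normalization (0.0041), in replicates 4 to 6 alone (0.0095) and without non angiogenic replicate 3 or 6 (0.0025 and 0.0059), and Fzd10os in replicates 4 to 6 alone (0.0024). Without 1 array the difference of Axin2 ran from -7.0e-04 to 0.067 and that of Lef1 from -0.059 to 0.0059. The cause of these changes was not tested. Median centring, quantile normalization and the acinar marker mean as a covariate gave the same 4 members.

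Arrays of the same replicate number also share a set, and nothing in the labels pairs them within it. The correlation of their deviations from the group means ran from 0.028 (replicate 3) to 0.54, and from -0.34 to 0.12 once set means were removed, and 2 of 6 angiogenic arrays correlated best with their own number. With the replicate block 4 members were higher and 0 lower, 5 and 4 of the other pathway genes, and 1058 and 449 of all genes. Ror1 then had an adjusted p of 0.083 from limma. RMA values carry no measure of background, so that how far signal limits a difference is unknown. Of the 50 members 5 had a mean level below the 25th percentile of all genes, and 17 of the 19 ligands were above it. However, 18 of the 19 ligands had a mean below the median of all genes.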
